A study of Mus musculus with 16 samples.

Results

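Counts of 43 genes of the non-muscle actin cytoskeleton were described in cultured mouse hippocampal cells with and without Shank3Δ11(-/-). The genes are 43 named rows of count tables that hold 54532 genes, taken by gene name. The list was written with earlier results of these data known, and the study itself singles out Myh9, Ezr, Palld and Rhoa from them. Results for the list are therefore not independent of these data. All 43 passed the filter on low counts and are among the 14783 genes tested. They fall into 8 groups by role: 2 actins, 5 genes of non-muscle myosin II, 5 side-binding proteins, 8 cross-linkers and bundlers, 6 linkers of actin to membranes and other filaments, 6 genes of small GTPase signalling, 5 of nucleation and elongation, and 6 of monomer binding, severing and capping.

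The cells came from hippocampi of newborn wild type (WT) mice and of Shank3Δ11(-/-) (KO) mice, in which a constitutive deletion removes the Shank3 isoforms a, b and c and leaves the shorter ones. Cultures were kept for 14 days and received lithium (Li) at 0.1 mmol/L, or water as vehicle (Veh), from day 9 for 5 days, which gave the groups WTVeh, WTLi, KOVeh and KOLi with 4 libraries each. Hippocampi of several pups were pooled and the meninges removed, and neurons and glia grew together. The sample labels give a day in vitro from 14 to 29, a different one for each library, whereas the series text gives 14 days for all. RNA was measured by bulk sequencing, so that fewer cells of a type and less RNA per cell cannot be told apart in any value below.

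Actin exists as monomers and as filaments, and cells set the balance through proteins that hold monomers, start and lengthen filaments, cut them, cap them or tie them into bundles. Non-muscle myosin II pulls on these filaments under the control of RhoA and its kinases ROCK1 and ROCK2, and the ERM proteins and filamins tie the filaments to the membrane. In the brain, actin shapes dendritic spines and growth cones of neurons. In culture, flat dividing glia, meningeal fibroblasts and vessel cells carry thick contractile bundles. Many actin genes are known to be controlled by serum response factor (SRF), which binds the CArG box in promoters.

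RefSeq promoters (build GRCm38.p6) were matched for 38 of the 43 genes. Not matched were Actb, Plec, Marcks, Rock1 and Diaph1. The CArG box, searched by its consensus on both strands of the 250 bases before the start, occurred in 4 of the 38 genes (10.5%), against 1.62% of the 27025 genes with a promoter in the table. These 4 promoters are shown because their genes hold the same box and differ in call: it lies in Lima1, which was lower in KO, in Cnn2, which just missed the call, and in Actg1 and Myl6, which were not called. Each sequence is the strand of the gene, 5′ to 3′, ending at the base before the start, with the CArG box in capitals. The box begins 90 bases before the start in Actg1 (chr11:120348496-120348745, minus strand), 50 in Myl6 (chr10:128493010-128493259, minus strand), 56 in Cnn2 (chr10:79988350-79988599, plus strand) and 47 in Lima1 (chr15:99820150-99820399, minus strand). Myl6 has another matched promoter (chr10:128493887-128494136) without the box. The promoters shown for Myl6 and Lima1 lie inside their genes (chr10:128490860-128494145 and chr15:99778470-99875456). Counts are per gene and do not tell which promoter was used. A match is a description of letters and not of binding.
Actg1: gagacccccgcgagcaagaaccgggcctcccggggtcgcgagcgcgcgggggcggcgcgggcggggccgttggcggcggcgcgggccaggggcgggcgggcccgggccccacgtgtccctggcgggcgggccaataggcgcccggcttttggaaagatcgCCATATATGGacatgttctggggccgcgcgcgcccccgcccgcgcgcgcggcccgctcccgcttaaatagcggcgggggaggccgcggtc
Myl6: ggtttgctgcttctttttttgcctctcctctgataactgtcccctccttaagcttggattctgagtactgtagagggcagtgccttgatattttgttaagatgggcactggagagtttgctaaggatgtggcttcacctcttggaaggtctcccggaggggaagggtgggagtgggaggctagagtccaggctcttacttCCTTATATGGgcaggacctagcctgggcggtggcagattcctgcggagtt
Cnn2: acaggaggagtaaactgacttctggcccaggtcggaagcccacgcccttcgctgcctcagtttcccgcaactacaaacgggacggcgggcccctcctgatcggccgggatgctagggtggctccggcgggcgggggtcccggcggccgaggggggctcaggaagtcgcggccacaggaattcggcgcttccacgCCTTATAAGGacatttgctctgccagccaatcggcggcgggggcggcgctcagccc
Lima1: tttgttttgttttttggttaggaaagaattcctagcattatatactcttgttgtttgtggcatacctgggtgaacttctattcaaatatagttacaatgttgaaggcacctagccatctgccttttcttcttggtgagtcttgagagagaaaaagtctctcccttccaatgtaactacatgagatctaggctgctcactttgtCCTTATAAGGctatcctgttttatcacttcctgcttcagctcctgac

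Total counts per library ranged from 16123067 to 35188300, and the 43 genes held between 0.861% and 1.39% of them. Shank3 in the KO library was 0.367 to 0.403 times the WT library of the same number in replicates 1, 3 and 4 under vehicle, but 0.956 times in replicate 2, and under Li 0.369 to 0.404 times against 0.845 times. The libraries labelled KOVeh replicate 2 and KOLi replicate 2 therefore stand apart from their label. Calls and the fold changes of some genes are also given without the libraries numbered 2. Marker sums, shares of counts, count ratios and the wider gene list include these libraries throughout. Values of genes below are read counts scaled to the size of the library after TMM scaling (CPM), listed in the order of replicates 1, 2, 3 and 4. Marker sums, also given in CPM, were scaled to the total counts of the library without TMM factors. Gene positions are those of the deposited tables (GRCm38.p6). A gene is called when its Benjamini-Hochberg adjusted p over all 14783 genes in edgeR's quasi-likelihood test is under 0.01 and its fold is above 1.2. Over all genes 506 were lower and 307 higher in KOVeh than in WTVeh, and 603 and 205 without the TMM factors.

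In vehicle-treated cultures, 11 of the 43 genes were lower in KO than in WT and 0 were higher, while 3.42% of all tested genes were called lower and 2.08% higher. They were Myh9 and Myl12a of myosin II, Flnc, Palld and Lima1 of the cross-linkers, Ezr of the membrane linkers, Rhoa, Rhoc and Iqgap1 of small GTPase signalling, Vasp of filament elongation and the severing protein gene Gsn. Fitted values were below zero for 39 of the 43, with a median log2 fold change of -0.44, against -0.01 over all genes tested. Neither cytoplasmic actin gene was called. The same number, 11 of 43, was called lower in KOLi against WTLi, where 3.60% of all genes were called lower and 2.76% higher, and 9 genes were called in both comparisons. These 2 comparisons share no library but may share cultures. Li and vehicle libraries of one genotype and number were taken to come from one culture, which the labels do not state. Such libraries are called a culture below.

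**Figure D1:**
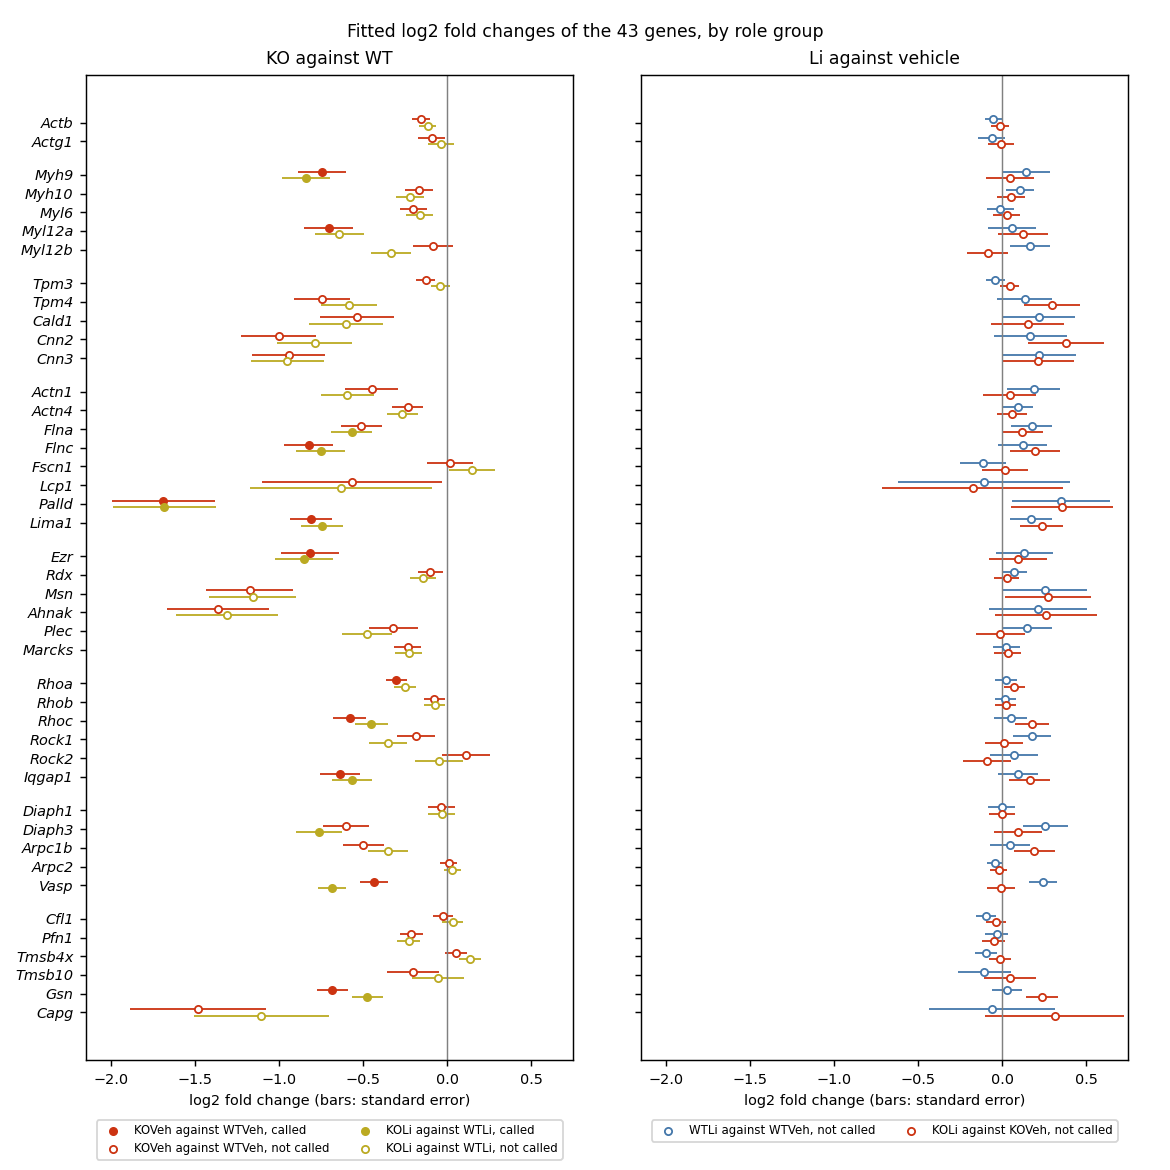
Fitted log2 fold changes of the 43 genes in 8 role groups, KO against WT on the left and Li against vehicle on the right. Points are estimates, bars are standard errors, and filled points passed the call; on the left filled points lie between -0.30 and -1.69, and on the right none is filled.

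The calls depend on the model and on single libraries. For KOVeh against WTVeh 20 genes were called without the 4 libraries numbered 2, and 12 without KOVeh replicate 2 alone, but 0 without WTVeh replicate 1, 2 without KOVeh replicate 1, 3 without WTVeh replicate 3, 1 without KOVeh replicate 3, 3 without WTVeh replicate 4, 1 without KOVeh replicate 4 and 19 without WTVeh replicate 2. The calls over all genes moved as well: 1119 of 14866 genes were lower without the libraries numbered 2, 442 without KOVeh replicate 2 and 881 without WTVeh replicate 2, and 24 to 177 in the 6 fits without a library numbered 1, 3 or 4, against 506 in the main design. For KOLi against WTLi 20 were called without the 4 libraries numbered 2, where 1117 of all genes were lower against 532. Leaving out WTLi replicates 1, 2, 3 and 4 in turn gave 4, 8, 1 and 1 called genes, and leaving out KOLi replicates 1, 2, 3 and 4 gave 1, 12, 1 and 1, with 39 to 559 of all genes lower in these 8 fits. Under vehicle, without the replicate number in the model, with the compared groups fitted alone, or in sequencing batch 1 alone (replicates 1 to 3), 0 genes were called, with 17, 23 and 26 of the 43 at an unadjusted p under 0.05 by edgeR, as had 2270 of 14783, 3647 of 14404 and 3956 of 14703 of all genes. Over all genes these 3 fits called 0, 0 and 6 lower. DESeq2 called 20 in the main design, and 1105 of all genes lower and 775 higher. The 9 genes added by DESeq2 were Ahnak, Arpc1b, Capg, Cnn2, Cnn3, Diaph3, Flna, Msn and Tpm4, and those added without the 4 libraries numbered 2 were the same except that Cald1 took the place of Diaph3. Without these 4 libraries the log2 fold changes under vehicle were -2.07 for Palld, -1.02 for Ezr, -0.88 for Myh9, -0.73 for Gsn and -0.34 for Rhoa, against -1.69, -0.82, -0.75, -0.69 and -0.30 with them. With the culture as a random effect in limma-voom, which takes account of the shared cultures, Myl12a, Rhoa, Rhoc, Iqgap1 and Vasp lost their call under vehicle and Gsn, Iqgap1 and Rhoc under Li, while Ahnak, Cnn2 and Cnn3 were added under vehicle and Ahnak, Cnn3 and Msn under Li. The number of genes below zero stayed between 37 and 41 in all of these settings and in the other alternatives run. Batch 2 holds 1 library of each group (replicate 4) and gives no test of its own. Dividing-cell markers moved in the same direction: 7 of 8 were lower in KOVeh, with a summed level of 104 to 187 CPM in WTVeh and 49.0 to 100.1 CPM in KOVeh, and their part in the results was not tested.

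The actin genes Actb and Actg1 encode the cytoplasmic β- and γ-actin from which non-muscle filaments are built. Actb (ENSMUSG00000029580, chr5:142903115-142906754, minus strand) stood at 1702, 1807, 1552 and 1809 CPM in WTVeh and at 1441, 1654, 1440.2 and 1637 CPM in KOVeh. The KO library was below the WT library of its number in all 4 pairs, but the groups overlapped and the gene was not called (log2 fold change -0.16 ± 0.05 (SE), adjusted p = 0.053). Under Li the levels were 1536, 1672, 1553 and 1873 CPM in WT and 1383, 1590.0, 1430.2 and 1715 CPM in KO (log2 fold change -0.12 ± 0.05 (SE), adjusted p = 0.121). Actg1 ranged from 994 to 1752 CPM over the 16 libraries, with a log2 fold change of -0.09 in KOVeh against WTVeh. Its 2 highest values came from KO replicate 4, at 1677 CPM in KOVeh and 1752 CPM in KOLi, while the other 6 KO libraries lay between 1058 and 1107 CPM.

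Among the genes of non-muscle myosin II, Myh9 encodes the heavy chain of myosin IIA, the force-bearing motor of stress fibres and of the ring that divides cells. Myh9 (ENSMUSG00000022443, chr15:77760587-77842175, minus strand) measured 159, 160.1, 163 and 295 CPM in WTVeh against 108, 133, 86.1 and 129 CPM in KOVeh. Every KOVeh library lay below every WTVeh library, which 2.86% of all genes tested showed in that direction, and WTVeh replicate 4 was far above the other 3. The difference was called (log2 fold change -0.75 ± 0.14 (SE), adjusted p = 0.00569). Under Li it measured 163, 230.0, 157 and 319 CPM in WT and 101, 155, 84.04 and 137 CPM in KO, again without overlap, as for 2.50% of all genes tested (log2 fold change -0.84 ± 0.14 (SE), adjusted p = 0.00328).

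Myl12a encodes a regulatory light chain that the ROCK kinases phosphorylate to switch the motor on. Its levels (ENSMUSG00000024048, chr17:70993656-71002878, minus strand) were 49.9, 66.5, 45.9 and 79.9 CPM in WTVeh and 34.1, 48.8, 23.4 and 42.5 CPM in KOVeh, lower in each of the 4 pairs with overlapping groups (log2 fold change -0.71 ± 0.15 (SE), adjusted p = 0.0075). Under Li, with 43.3, 58.02, 53.96 and 99.3 CPM in WT and 32.01, 51.9, 30.4 and 47.5 CPM in KO, it narrowly missed the call (log2 fold change -0.64 ± 0.15 (SE), adjusted p = 0.0106). The counts of Myom1, which overlaps Myl12a on the opposite strand, reached at most 10.5% of those of Myl12a. Myh10, the heavy chain of myosin IIB that predominates in neurons, had log2 fold changes of -0.17 and -0.22 under vehicle and Li. Those of the essential light chain gene Myl6 were -0.20 and -0.16, and those of Myl12b, the second regulatory light chain gene, -0.08 and -0.34. None of these 3 was called.

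Of the side-binding proteins, tropomyosins (Tpm3, Tpm4) run along the filament, and caldesmon (Cald1) and calponins (Cnn2, Cnn3) hold back its contact with myosin. None of the 5 was called in either comparison. Cnn2 (ENSMUSG00000004665, chr10:79988584-79996062, plus strand) had the smallest p of the group and measured 45.8, 50.3, 41.7 and 86.4 CPM in WTVeh and 26.1, 40.3, 15.8 and 29.02 CPM in KOVeh. All KOVeh values were below all WTVeh values, and the fit gave log2 fold change -1.004 ± 0.22 (SE), adjusted p = 0.0106. Under Li the values 37.5, 56.7, 50.9 and 112 CPM in WT and 29.6, 49.2, 25.1 and 40.8 CPM in KO overlapped (log2 fold change -0.79 ± 0.22 (SE), adjusted p = 0.026). Tpm4 also had KOVeh values (53.5 to 94.6 CPM) below all WTVeh values (118 to 144 CPM), with log2 fold change -0.75 ± 0.17 (SE), adjusted p = 0.0108.

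Cnn3, the most abundant of the group per length with 546, 644, 328 and 643 CPM in WTVeh, showed how far replicate 2 departed from the others. The library labelled KOVeh replicate 2 held 533 CPM, whereas KOVeh replicates 1, 3 and 4 held 253, 188 and 219 CPM (log2 fold change -0.94 ± 0.22 (SE), adjusted p = 0.0125). Cald1 was higher in the KO library of pair 2 (log2 difference 0.37) and lower in pairs 1, 3 and 4 (-0.51, -1.07 and -0.91). Tpm3 had log2 fold changes of -0.13 and -0.04 in the 2 genotype comparisons.

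Among the cross-linkers and bundlers, Palld encodes palladin, a scaffold along stress fibres that binds α-actinin, and carried the most negative estimate of the 43 genes in both genotype comparisons. Palld (ENSMUSG00000058056, chr8:61511433-61902690, minus strand) measured 89.1, 108, 66.4 and 243 CPM in WTVeh and 24.8, 81.8, 15.2 and 49.9 CPM in KOVeh. WTVeh replicate 4 was the highest and KOVeh replicate 3 the lowest, and the library labelled KOVeh replicate 2 lay within the range of WTVeh. KOVeh was at 31.0% of WTVeh in the fit (log2 fold change -1.69 ± 0.31 (SE), adjusted p = 0.00455). Under Li the levels were 101, 181, 80.9 and 312 CPM in WT and 21.01, 116, 24.8 and 63.5 CPM in KO, overlapping in the same way (log2 fold change -1.68 ± 0.31 (SE), adjusted p = 0.00434). Mural and smooth muscle markers summed to 92.5, 93.4, 82.3 and 218 CPM in WTVeh and to 46.0, 128, 24.4 and 80.3 CPM in KOVeh, which are also highest in replicate 4 of WTVeh and lowest in replicate 3 of KOVeh. Unlike Palld, the sum was higher in KO than in WT in pair 2. Of the 9 listed markers 5 were tested and 0 called, with 4 fitted values below zero and 1 above (log2 fold change 0.72). Summed endothelial markers were also highest in WTVeh replicate 4 (67.4 CPM) and lowest in KOVeh replicate 3 (17.5 CPM) of the vehicle libraries. So were summed dividing-cell markers (187 and 49.0 CPM). The part of any of these markers in Palld was not tested.

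Lima1 encodes a LIM protein that stabilises and bundles filaments. Lima1 (ENSMUSG00000023022, chr15:99778470-99875456, minus strand) varied little within WTVeh, with 44.4, 46.05, 43.5 and 47.1 CPM, and measured 26.7, 35.6, 21.8 and 20.9 CPM in KOVeh. The groups did not overlap, with the library labelled KOVeh replicate 2 nearest to WT (log2 fold change -0.81 ± 0.13 (SE), adjusted p = 0.00291). Neither did they under Li, at 43.9, 54.6, 47.4 and 57.9 CPM in WT and 31.5, 38.3, 27.1 and 26.01 CPM in KO (log2 fold change -0.75 ± 0.13 (SE), adjusted p = 0.00328).

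Filamins cross-link filaments into nets and tie them to integrins. Flnc (ENSMUSG00000068699, chr6:29433256-29461883, plus strand), the filamin best known from muscle, measured 30.6, 32.9, 38.5 and 52.7 CPM in WTVeh and 20.3, 22.998, 15.03 and 29.7 CPM in KOVeh, just without overlap (log2 fold change -0.83 ± 0.15 (SE), adjusted p = 0.00435). Under Li its values were 30.8, 39.1, 38.9 and 61.5 CPM in WT and 23.5, 28.8, 16.3 and 32.1 CPM in KO, where KOLi replicate 4 reached above WTLi replicate 1 (log2 fold change -0.76 ± 0.15 (SE), adjusted p = 0.0058). Flna (ENSMUSG00000031328, chrX:74223461-74249820, minus strand) is the abundant filamin of non-muscle cells and was called only under Li, while the difference between the 2 genotype effects had a log2 value of -0.06 and was not called. It measured 382, 398, 456 and 752 CPM in WTVeh and 309, 364, 235 and 489.9 CPM in KOVeh (log2 fold change -0.51 ± 0.12 (SE), adjusted p = 0.0139). Under Li it measured 421, 579, 447 and 809 CPM in WT and 316, 436, 271 and 478 CPM in KO, and replicate 4 was the highest of its group in all 4 groups (log2 fold change -0.57 ± 0.12 (SE), adjusted p = 0.00831).

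The other 4 genes of the group were not called. The α-actinin genes Actn1 and Actn4 had log2 fold changes of -0.45 and -0.24 under vehicle, and -0.60 and -0.27 under Li. Fscn1, which encodes the fascin that bundles filaments of filopodia, had 0.01 and 0.15. Lcp1 encodes the plastin of blood cells and spanned 1.35 to 34.3 CPM over the libraries. It was at or above 3.27 CPM in the 8 libraries numbered 1 and 2 and at or below 3.05 CPM in those numbered 3 and 4, and the summed microglia and macrophage markers were 29.1 to 255 CPM and 8.23 to 21.6 CPM in the same 2 sets.

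**Figure D2:**
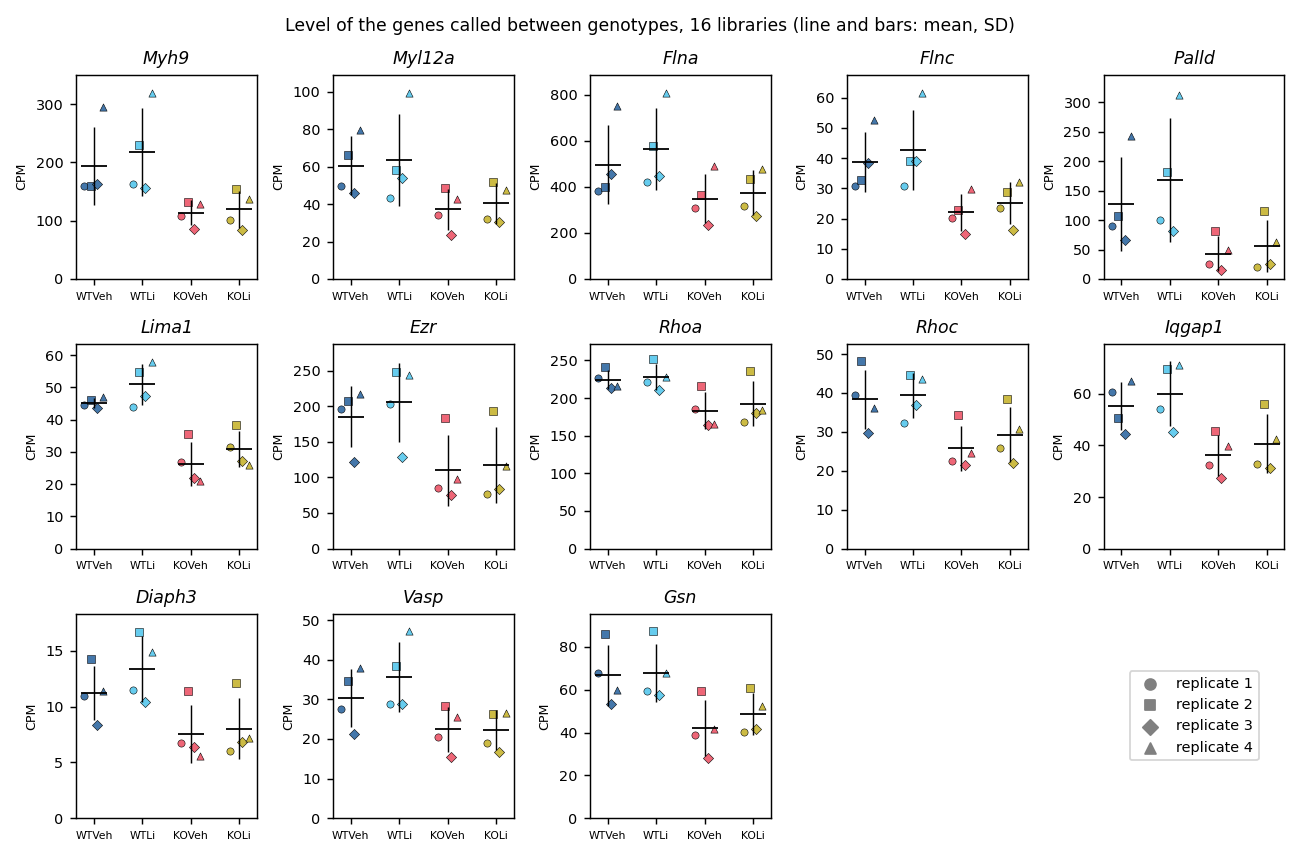
CPM of the 13 genes called in either genotype comparison, in 16 libraries by group, with the marker shape giving the replicate number and lines and bars the mean and SD of 4 libraries. The KO library is below the WT library of its number in all 4 pairs of each panel under vehicle and under Li, although the groups overlap in most panels, with the squares of replicate 2 high among the KO libraries, as for Ezr at 184 CPM in KOVeh.

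Among the linkers to membranes and other filaments, ezrin, radixin and moesin (the ERM proteins, Ezr, Rdx and Msn) tie filaments to the cell membrane. Ezr (ENSMUSG00000052397, chr17:6738041-6782784, minus strand) measured 196, 207, 122 and 217 CPM in WTVeh and 84.6, 184, 74.8 and 97.4 CPM in KOVeh. WTVeh replicate 3 was low within its group and the library labelled KOVeh replicate 2 high within its own, so that the groups overlapped, but each KO library was below the WT library of its number (log2 fold change -0.82 ± 0.17 (SE), adjusted p = 0.00818). Under Li the same order held, with 203, 248, 129 and 244 CPM in WT and 76.5, 193, 83.4 and 117 CPM in KO (log2 fold change -0.85 ± 0.17 (SE), adjusted p = 0.0065). Msn had a lower estimate but a wider error: it measured 200.3, 213, 128 and 236 CPM in WTVeh and 80.1, 187, 47.2 and 74.3 CPM in KOVeh (log2 fold change -1.18 ± 0.26 (SE), adjusted p = 0.0101). Rdx ranged only from 116 to 164 CPM over the 16 libraries, with log2 fold changes of -0.10 and -0.15.

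Ahnak encodes a giant scaffold under the membrane and had the third most negative estimate of the 43 genes under vehicle, without being called (log2 fold change -1.36 ± 0.30 (SE), adjusted p = 0.0108). It measured 51.8, 61.0, 39.3 and 142 CPM in WTVeh and 23.1, 50.8, 12.6 and 27.5 CPM in KOVeh. Plec, the plectin gene that ties actin to intermediate filaments, and Marcks, a membrane-bound substrate of protein kinase C, had log2 fold changes of -0.32 and -0.24 under vehicle and -0.48 and -0.23 under Li. Counts of Parp10, which overlaps Plec on the same strand, reached 24.6% of those of Plec.

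Of the genes of small GTPase signalling, Rhoa and Rhoc encode GTPases that switch on ROCK kinases and formins. Rhoc (ENSMUSG00000002233, chr3:104788375-104794459, plus strand) measured 39.4, 48.2, 29.8 and 36.1 CPM in WTVeh and 22.5, 34.4, 21.6 and 24.6 CPM in KOVeh. The library labelled KOVeh replicate 2 exceeded WTVeh replicate 3, yet the 4 pair differences lay close together, between -0.79 and -0.46 (log2 fold change -0.58 ± 0.10 (SE), adjusted p = 0.00346). Under Li the values were 32.2, 44.6, 37.02 and 43.6 CPM in WT and 25.7, 38.5, 22.04 and 30.7 CPM in KO (log2 fold change -0.45 ± 0.10 (SE), adjusted p = 0.00917). Rhoa (ENSMUSG00000007815, chr9:108306129-108337934, plus strand) showed the smallest called difference, from 226, 242, 214 and 216 CPM in WTVeh to 186, 217, 164 and 165 CPM in KOVeh, where only the library labelled KOVeh replicate 2 reached the range of WTVeh (log2 fold change -0.30 ± 0.06 (SE), adjusted p = 0.00849). It was not called under Li, at 221, 252, 211 and 229 CPM in WT and 169, 236, 180.4 and 185 CPM in KO (log2 fold change -0.25 ± 0.06 (SE), adjusted p = 0.0182). Rhoa lost its call under vehicle in 7 of the 11 alternatives that leave out no single library, namely RLE scaling, no filter on low counts, all biotypes, no replicate term, the compared groups alone, sequencing batch 1 alone and the culture as a random effect, and Tcta on the opposite strand held up to 29.5% of its counts.

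Iqgap1 encodes a scaffold that binds Rac1 and Cdc42 and cross-links filaments. Iqgap1 (ENSMUSG00000030536, chr7:80711583-80825974, minus strand) measured 60.6, 50.7, 44.6 and 65.2 CPM in WTVeh and 32.2, 45.5, 27.3 and 39.6 CPM in KOVeh, with 1 KOVeh library above the lowest WTVeh library (log2 fold change -0.64 ± 0.12 (SE), adjusted p = 0.00519). Under Li it measured 54.01, 69.6, 45.2 and 71.3 CPM in WT and 32.6, 56.04, 31.3 and 42.6 CPM in KO (log2 fold change -0.57 ± 0.12 (SE), adjusted p = 0.00789). The related GTPase gene Rhob and the kinase genes Rock1 and Rock2 were not called. Their log2 fold changes were -0.08, -0.19 and 0.11 under vehicle and -0.08, -0.35 and -0.05 under Li. For Rock2, the pair differences under vehicle ran from 0.47 in pair 1 to -0.45 in pair 4.

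For nucleation and elongation, VASP sits at the filament tip and lengthens it, formins (Diaph1, Diaph3) start and extend straight filaments, and the Arp2/3 complex (Arpc1b, Arpc2) starts branches. Vasp (ENSMUSG00000030403, chr7:19256929-19271817, minus strand) measured 27.7, 34.6, 21.2 and 37.9 CPM in WTVeh and 20.5, 28.3, 15.5 and 25.5 CPM in KOVeh, and the pair differences ranged narrowly from -0.56 to -0.29 (log2 fold change -0.44 ± 0.08 (SE), adjusted p = 0.00515). Under Li it measured 28.8, 38.4, 28.7 and 47.2 CPM in WT and 19.1, 26.4, 16.8 and 26.5 CPM in KO, now without overlap (log2 fold change -0.69 ± 0.08 (SE), adjusted p = 0.00112). That call held in all 8 fits that left out 1 library of its comparison, as no other call of the 43 genes did.

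Diaph3 (ENSMUSG00000022021, chr14:86655367-87141235, minus strand) is a low-count gene that measured 10.97, 14.3, 8.32 and 11.4 CPM in WTVeh and 6.70, 11.4, 6.41 and 5.61 CPM in KOVeh, just outside the threshold (log2 fold change -0.60 ± 0.14 (SE), adjusted p = 0.0121). It was called under Li, at 11.47, 16.7, 10.5 and 14.9 CPM in WT and 6.04, 12.1, 6.79 and 7.18 CPM in KO (log2 fold change -0.77 ± 0.14 (SE), adjusted p = 0.00432). The 2 genotype effects differed by -0.16 on the log2 scale, which was not called. Diaph1 had log2 fold changes of -0.04 and -0.03, and Arpc2 of 0.01 and 0.03. Arpc1b lay at -0.50 under vehicle and -0.35 under Li, but Pdap1 on the opposite strand overlaps it and held up to 617% of its counts, so that its values are uncertain.

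Among the genes of monomer binding, severing and capping, gelsolin (Gsn) cuts and caps filaments when calcium rises. Gsn (ENSMUSG00000026879, chr2:35256380-35307892, plus strand) measured 67.6, 86.1, 53.3 and 60.1 CPM in WTVeh and 39.03, 59.5, 28.3 and 41.8 CPM in KOVeh and had the smallest p of the 43 genes in this comparison. Only the library labelled KOVeh replicate 2 reached into the range of WTVeh (log2 fold change -0.69 ± 0.09 (SE), adjusted p = 0.00177), and the call held in 7 of 8 fits without 1 library, the exception being WTVeh replicate 1. Under Li, at 59.3, 87.3, 57.8 and 67.8 CPM in WT and 40.1, 60.8, 41.7 and 52.5 CPM in KO, the call (log2 fold change -0.48 ± 0.09 (SE), adjusted p = 0.00567) held in 0 of 8 such fits. Capg, a capping protein gene that macrophages express highly, was at 0.686 to 10.4 CPM over the libraries and was not called (log2 fold change -1.48 ± 0.41 (SE), adjusted p = 0.0245).

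The genes of the main monomer pool were not called. Cofilin (Cfl1), which cuts old filaments, had log2 fold changes of -0.03 and 0.03, and profilin 1 (Pfn1), which feeds monomers to growing tips, -0.21 and -0.23. The thymosins Tmsb4x and Tmsb10, which hold monomers in reserve, had 0.05 and -0.21 under vehicle and 0.13 and -0.06 under Li. Tmsb4x measured 960.1, 1048, 1066 and 1182 CPM in WTLi and 1166, 1145, 1120.4 and 1234.2 CPM in KOLi, and every KO library was above the WT library of its number without a call (log2 fold change 0.13 ± 0.07 (SE), adjusted p = 0.154).

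Compared per length, the most abundant of the 43 genes were Tmsb4x (829 CPM per kb), Actb (602 CPM per kb), Actg1 (476 CPM per kb) and Cfl1 (353 CPM per kb), as means of 16 libraries. Of the 10 most abundant per kb, 0 were called in either genotype comparison. Over all genes tested 3.42% were lower and 2.08% higher under vehicle, and 3.60% and 2.76% under Li. With 10 genes, 0 calls lie near these shares. Fitted log2 fold changes of the 10 ran from -0.94 to 0.05 under vehicle, the lowest being that of Cnn3. The 13 called genes lay between 1.80 CPM per kb (Diaph3) and 47.5 CPM per kb (Flna). The share of all counts held by the 43 genes was 1.15% ± 0.117 (SD, n = 4) in WTVeh, 0.963% ± 0.0953 in KOVeh, 1.18% ± 0.166 in WTLi and 0.988% ± 0.116 in KOLi. The ranges overlapped, but the KO share was below the WT share of its number in 4 of 4 pairs under vehicle and in 4 of 4 under Li.

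**Figure D3:**
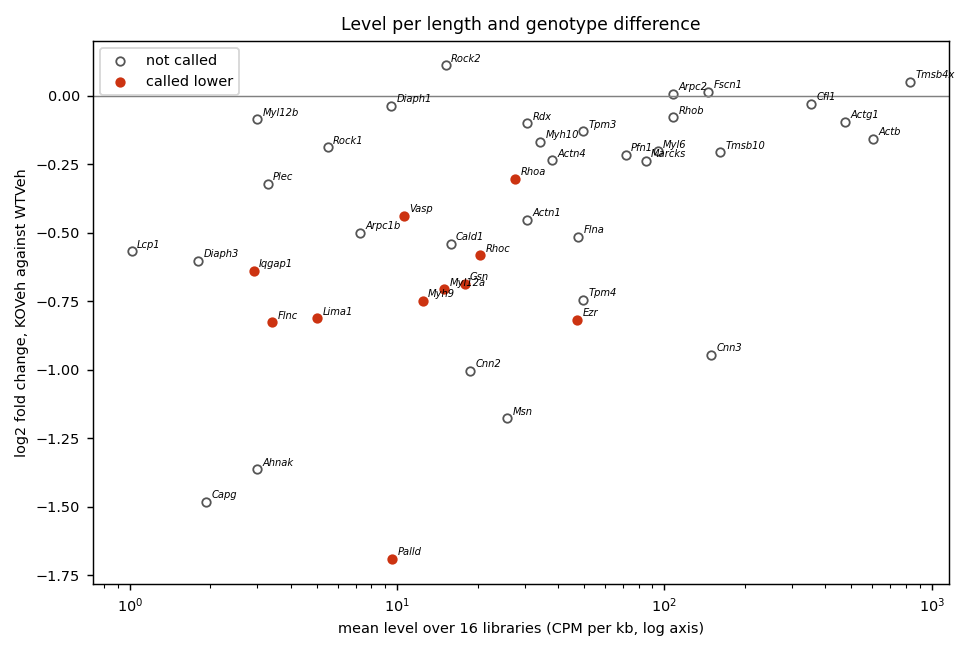
Fitted log2 fold change of KOVeh against WTVeh over the mean level per length of each of the 43 genes in 16 libraries (CPM per kb, log axis). Filled points, the 11 called genes, lie at or below the 47.03 CPM per kb of Ezr, while Tmsb4x at 829 and Actb at 602 CPM per kb lie near zero.

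The size of the differences varied with the replicate number. The median log2 difference of the 43 genes between KOVeh and WTVeh was -0.31 in pair 1, -0.16 in pair 2, -0.44 in pair 3 and -0.53 in pair 4. Under Li these medians were -0.37, -0.19, -0.43 and -0.51. For 9 of the 11 genes called under vehicle, pair 2 had the smallest difference. The library labelled KOVeh replicate 2 held the highest KOVeh level of 30 of the 43 genes, against 34.9% of all genes tested, and WTVeh replicate 4 the highest WTVeh level of 25, against 29.4%. All 4 pairs were below zero for 23 of the 43 genes under vehicle, where 17.2% of all genes tested were, and for 30 under Li, where 20.6% were. Tmsb4x was the 1 gene above zero in all 4 pairs, under Li, where 18.7% of all genes were.

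**Figure D4:**
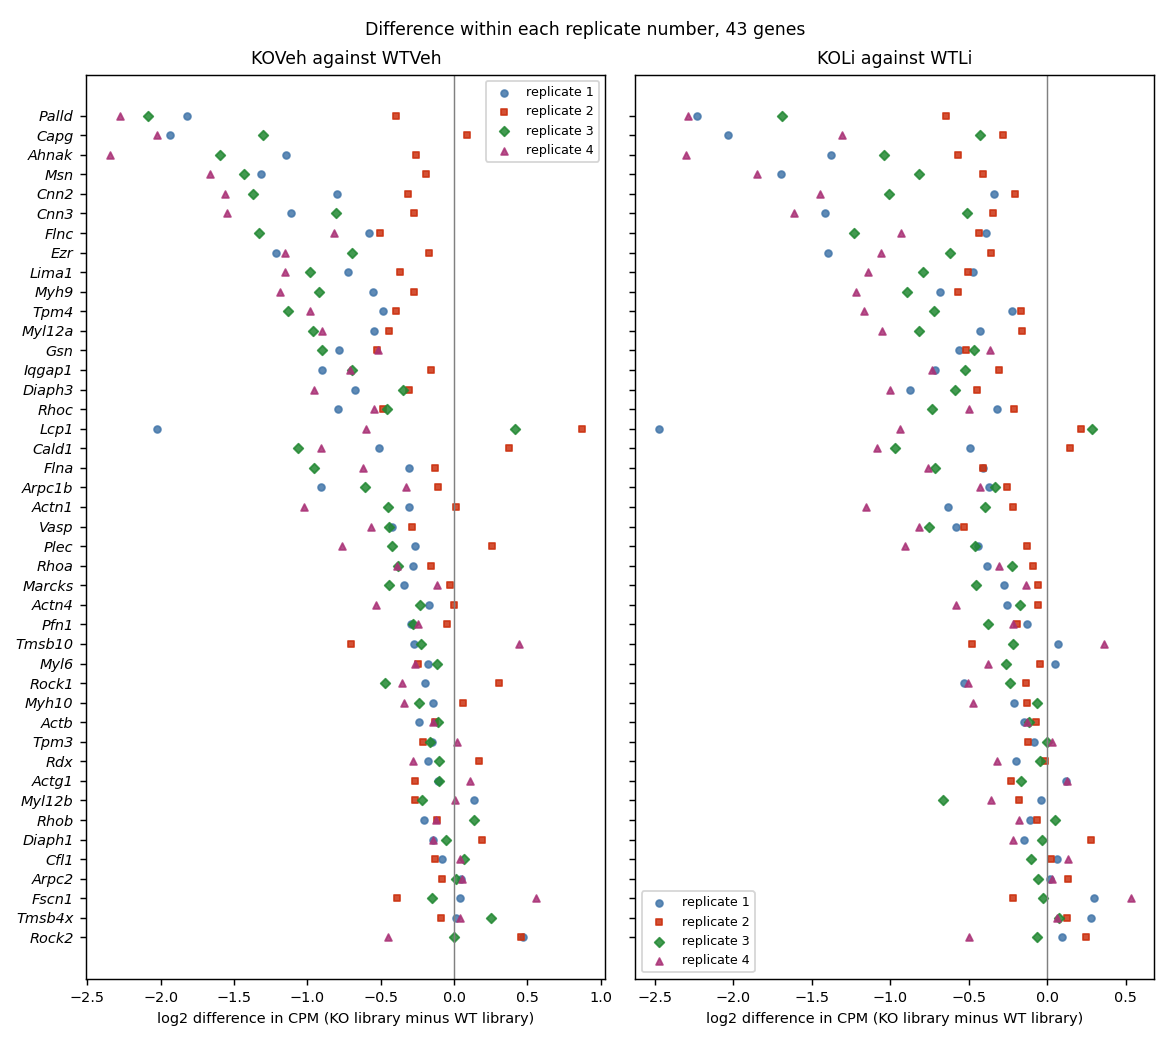
Log2 difference in CPM between the KO and the WT library of the same replicate number for each of the 43 genes. A small constant was added to each CPM before the logarithm. Genes are ordered by the fitted fold change under vehicle, with vehicle on the left and Li on the right. On the left the squares of pair 2 lie nearer to zero than the other symbols for the genes at the top, as for Palld with -0.39 in pair 2 and -2.27 in pair 4.

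Markers of cell types were summed in the same libraries. Summed meningeal fibroblast markers (10 tested, 2 lower) lay at 1536 to 1633 CPM in WTVeh and 1075 to 1308 CPM in KOVeh, without overlap. Endothelial markers (4 of 6 tested, 0 called) lay at 43.3 to 67.4 CPM and 17.5 to 43.3 CPM, and ependymal markers (7 of 8 tested, 0 called) at 125 to 293 CPM and 56.1 to 295 CPM, the highest KOVeh value being that of the library labelled replicate 2. Astrocyte markers (8 tested, 0 lower, 1 higher) summed to 4961 to 8208 CPM and 4068 to 8249 CPM, and neuron markers (8 tested, 0 lower, 2 higher) to 4045 to 5506 CPM and 4622 to 6266 CPM. Oligodendrocyte lineage markers (9 tested, 1 lower) summed to 439 to 842 CPM and 325 to 612 CPM, and those of microglia and macrophages (11 tested, 0 called) to 16.9 to 255 CPM and 8.23 to 138 CPM. Under Li, 8 of 8 dividing-cell markers were lower in KO, with a median sum of 174.6 CPM in WTLi and 81.2 CPM in KOLi. These sums overlapped between the groups. The library labelled KOLi replicate 2 lay above WTLi replicates 1 and 3 (112.4 and 119.2 CPM), although each KO sum was below the WT sum of its number. Meningeal fibroblast markers under Li summed to 1446 to 1720 CPM in WTLi and 1034 to 1492 CPM in KOLi, with overlap. Of the 77 markers 7 were not tested for low counts, among them Cldn5 (0 to 9 counts) and Des (0 to 8 counts), and no marker was at 0 in every library of a group. By staining, the study counted neurons, astrocytes, microglia and oligodendrocytes in cultures of 14 days. It reported no genotype difference in their shares or in the number of nuclei. It gave no counts of the other cell types listed here. The part of any of these cell types in the actin genes was not tested.

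None of the 43 genes was called for Li in either genotype. In KOLi against KOVeh 0 were called by edgeR, DESeq2 or limma-voom, 1 (Gsn) had an unadjusted p under 0.05 in edgeR, and the log2 fold changes ranged from -0.18 to 0.38. Gsn measured 39.0, 59.5, 28.3 and 41.8 CPM in KOVeh and 40.1, 60.8, 41.7 and 52.5 CPM in KOLi, higher in each of the 4 cultures (log2 fold change 0.24 ± 0.09 (SE), adjusted p = 1). In WTLi against WTVeh 0 were again called by the same 3 tools, 1 (Vasp) had an unadjusted p under 0.05 in edgeR, and the range was -0.11 to 0.35. Vasp was higher with Li in each of the 4 WT cultures (log2 fold change 0.24 ± 0.08 (SE), adjusted p = 0.999) and at -0.01 in KO. The difference of the Li effect between KO and WT was called for 0 of the 43 by each of the 3 tools, and 1 gene, Vasp, had an unadjusted p under 0.05 in edgeR (log2 fold change -0.25 ± 0.12 (SE), adjusted p = 1). Over all 14783 genes, 0 (0%) were called in each of these 3 comparisons, and 225, 217 and 112 had an unadjusted p under 0.05. Fitted values were above zero for 31 genes in KO and 30 in WT, and 8 and 11 genes were higher with Li in all 4 cultures, against 7.68% and 8.79% of all genes tested. With the culture as a random effect in limma-voom, 4 of the 43 had an unadjusted p under 0.05 in each genotype, against 636 of all genes in KO and 867 in WT, and 0 were called. With the compared groups fitted alone, where the replicate number pairs the libraries of a culture, 13 of the 43 in KO and 12 in WT had an unadjusted p under 0.05, against 1240 of 14190 and 1135 of 14491 genes, and 0 of the 43 were called.

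Related genes were compared with each other by the ratio of their counts within a library, which does not depend on the library's scaling. The Myh9/Myh10 ratio, of myosin IIA to IIB, was 0.463, 0.482, 0.456 and 0.668 in WTVeh and 0.347, 0.382, 0.284 and 0.370 in KOVeh. The groups did not overlap, with a log2 difference of -0.57 (two-sided exact permutation p = 0.0286, the smallest that 4 against 4 libraries can give, 0.143 after Benjamini-Hochberg adjustment over the 10 tests made). Under Li the ratio was 0.465 to 0.649 in WT and 0.261 to 0.403 in KO, with a log2 difference of -0.62 and the same exact p = 0.0286 (adjusted 0.143), lower in KO in 4 of 4 pairs in both comparisons. The Pfn1/Pfn2 ratio was 0.318 to 0.416 in WTVeh and 0.210 to 0.371 in KOVeh (exact permutation p = 0.114, adjusted 0.357). Under Li its log2 difference was -0.46 (exact permutation p = 0.143, adjusted 0.357). For Cfl1/Cfl2, Actb/Actg1 and Tmsb4x/Tmsb10 the log2 differences under vehicle were -0.05, -0.06 and 0.24, with exact permutation p-values of 0.686, 0.743 and 0.343 and adjusted values of 0.825, 0.825 and 0.571. None of the 10 passed after adjustment. Both Myh9/Myh10 tests were at the smallest possible p, so they could not have passed unless several other tests also reached it. The adjusted values therefore do not decide on this ratio. The permutation also took no account of the replicate number. Tmsb4x/Tmsb10 spread from 4.15 to 8.41 in WTVeh but only from 5.95 to 6.37 in KOVeh.

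**Figure D5:**
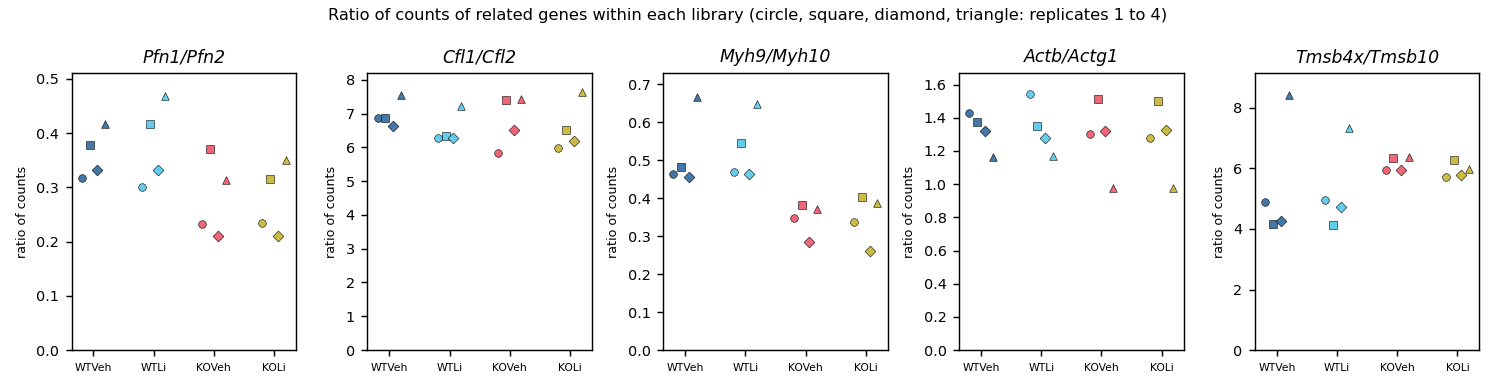
Ratio of counts of 5 pairs of related genes in each of 16 libraries, by group. The Myh9/Myh10 ratio is the pair whose KO values (0.261 to 0.403) all lie below its WT values (0.456 to 0.668).

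A wider list of 130 other actin genes in 10 groups was read beside the 43. Of these, 10 were lower and 2 higher in KOVeh against WTVeh, with a median log2 fold change of 0.03, and 8 were lower and 1 higher in KOLi against WTLi, with a median of 0.06. Over all genes tested 3.42% were lower and 2.08% higher under vehicle, and 3.60% and 2.76% under Li. Log2 fold changes with their SE follow in parentheses, for KOVeh against WTVeh unless Li is named. Among other cross-linkers and adhesion linkers, the talin gene Tln1 (-0.64 ± 0.12, adjusted p = 0.00446) and the LIM protein gene Pdlim1 (-1.05 ± 0.23, adjusted p = 0.00959) were lower. Among 8 other myosin II genes and regulators 3 were lower, Myl9 (-1.28 ± 0.26, adjusted p = 0.00686), Tpm2 (-1.004 ± 0.17, adjusted p = 0.00372) and Myh14 (-0.73 ± 0.12, adjusted p = 0.00335), of which Myl9 and Tpm2 are best known from smooth muscle. Of 18 further genes of small GTPase signalling 4 were lower, the atypical GTPase gene Rhou (-0.53 ± 0.08, adjusted p = 0.00251), the exchange factor gene of dividing cells Ect2 (-1.01 ± 0.17, adjusted p = 0.00346), Rhog (-0.66 ± 0.12, adjusted p = 0.00446) and Rnd3, and the exchange factor gene Trio was higher.

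Cyfip2, a subunit of the WAVE complex that starts branched filaments in neurons, was the 1 of 14 WASP and WAVE regulators called (0.31 ± 0.06, adjusted p = 0.0047, higher in KO). Under Li the formin Fmnl1 was higher in KO (0.38 ± 0.08, adjusted p = 0.0061). Of 8 other Arp2/3 subunits, 27 genes of severing, capping and monomer binding, 9 spectrins, 10 membrane-bound and spine regulators and SRF with its coactivators (3 genes), 0 were called in either comparison. Among the closest relatives of the 43 genes Myh14 was called, while the 10 given next were not. For the second profilin and cofilin genes Pfn2 and Cfl2 the log2 fold changes under vehicle were 0.17 ± 0.06, adjusted p = 0.0721 and 0.02 ± 0.06, adjusted p = 0.867. For Pls3, the plastin gene of other tissues than blood, the value was 0.12 ± 0.07, adjusted p = 0.264, and for the Ena/VASP genes Enah and Evl 0.03 ± 0.07, adjusted p = 0.833 and 0.09 ± 0.10, adjusted p = 0.56. Tpm1, a further tropomyosin gene, had -0.56 ± 0.15, adjusted p = 0.0215 and the formin gene Diaph2 -0.07 ± 0.17, adjusted p = 0.808. The values of Arpc1a, Marcksl1 and Iqgap2 were -0.004 ± 0.08, adjusted p = 0.978, -0.03 ± 0.13, adjusted p = 0.904 and -0.38 ± 0.29, adjusted p = 0.388. Myh9, Lima1 and Plec lie on chromosome 15, which also carries Shank3.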

How the data were processed

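The authors aligned reads of mRNA purified from total RNA to GRCm38.p6 with HISAT2 2.0.5 and counted them per gene with featureCounts 1.5.0-p3, by the submitters' processing notes and the study's methods. The deposited values are unnormalised read counts of 54532 genes in 16 libraries, with totals of 16123067 to 35188300 and 0 rows without a gene. Whether strand was used in counting is not stated in the sources read here. Without it, reads of genes that overlap on opposite strands cannot be told apart.

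Genes of the biotypes kept by the study (33134) with at least 15 counts, by filterByExpr with a minimum proportion of 0.25, gave 14783 genes. They were fitted with edgeR 4.0.16 (R 4.3.3) by the quasi-likelihood test with TMM scaling (factors 0.965 to 1.03), with group and replicate number as terms over all libraries, and adjusted by Benjamini-Hochberg over all genes. A gene was called with a fold over 1.2 at an adjusted p below 0.01. The replicate number was taken as the study's experimental batch, which the labels do not state. Deviations from the group means of same-numbered libraries correlated at 0.411 to 0.889 within a genotype and at -0.0386 to 0.557 between genotypes. Li and vehicle libraries of one genotype and number were taken to share a culture, which the labels do not state either. If they do, the genotype tests are lenient and the treatment tests strict. The edgeR p-values weigh a difference against the spread left between libraries after the replicate number is taken out, estimated over all groups.

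Alternatives were DESeq2 1.42.0, limma-voom (limma 3.58.1), RLE scaling, no low-count filter, all biotypes, no replicate term, the compared groups alone, sequencing batch 1, culture as a random effect, the libraries numbered 2 left out and each library left out. No TMM factors was added after seeing the data. Scripts were tested on simulated counts. Members, role groups, pathway, marker and ratio lists were chosen with earlier results of these data known, and the study itself singles out Myh9, Ezr, Palld and Rhoa from these libraries. Values in every library are given for genes called between genotypes and for the smallest p in each role group, and, chosen after seeing values, for Tmsb4x under Li and for Cnn3, Msn, Ahnak and Lcp1 in part. Of the wider list, values are given for at most 3 called genes per group by smallest p, and for the fixed relatives; 1 gene of that list is not reported here. CPM of genes are counts after TMM scaling, and CPM per kb divides by the length in the deposited table. Marker sums in CPM were scaled to the total counts of the library without TMM factors. The TMM factor of each KO library was below that of the WT library of its number. Marker sums are therefore slightly lower in KO against WT than they would be with these factors.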

Additional observations from a re-analysis of the deposited data

Results flagged for a closer look

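Each gene and ratio was checked for a library whose distance from the other 3 of its group filled most of the group's range, over 192 groups of 4 libraries. Chance flags about 1 in 20 groups, and 12 were flagged. Replicate 4 accounted for 8 of them. In WTVeh replicate 4, Myh9 stood at 294.5 CPM against 159 to 163 CPM in the other 3 libraries, Actn1 at 259.9 CPM against 159 to 164 CPM, Plec at 105.9 CPM against 47.9 to 53.2 CPM, and the Myh9/Myh10 ratio at 0.668 against 0.456 to 0.482. Actg1 stood at 1677 CPM in KOVeh replicate 4 against 1093 to 1107 CPM, and at 1752 CPM in KOLi replicate 4 against 1058 to 1081 CPM. Cfl1 stood at 984 CPM in KOLi replicate 4 against 754 to 780.3 CPM, and the Cfl1/Cfl2 ratio at 7.23 in WTLi replicate 4 against 6.27 to 6.33. Replicate 4 is also the sequencing batch of its own, and the batch and the replicate cannot be told apart.

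The other 4 came from other libraries. Ezr was low in WTVeh replicate 3, at 121.7 CPM against 196 to 217 CPM. Fscn1 was low in WTLi replicate 1, at 343 CPM against 422 to 437 CPM. Rdx was high in WTVeh replicate 1, at 154 CPM against 140.1 to 142 CPM. Arpc1b was high in the library labelled KOLi replicate 2, at 45.03 CPM against 29.2 to 31.1 CPM.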

How the results depend on the processing

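Under every alternative run, 0 of the 43 genes were higher in KO, 37 to 41 had fitted values below zero, and no called gene changed sign. Some uncalled genes did: Fscn1 under vehicle went from 0.01 to -0.14 in sequencing batch 1 alone, and Lcp1 from -0.57 to 0.21 without WTVeh replicate 1, and Diaph1, Arpc2 and Cfl1 under vehicle and Actg1, Arpc2, Cfl1, Diaph1, Rock2 and Tmsb10 under Li changed sign in at least 1 alternative. Against 11 called under vehicle and 11 under Li, DESeq2 called 20 and 18 (all genes lower 1105 and 1199, against 506 and 532), limma-voom 11 and 11, RLE scaling 10 and 11, all biotypes 10 and 9, no low-count filter 15 and 14, and no TMM factors, chosen after seeing the data, 14 and 13. The last 5 gave 446 and 433, 463 and 477, 477 and 458, 513 and 523, and 603 and 645 lower among all genes. Without the 4 libraries numbered 2 it was 20 and 20 (all genes lower 1119 and 1117), of which 11 and 10 were among the genes called with them. Fits with no replicate block called 0 and 0, as did the compared groups alone and sequencing batch 1 alone (0 and 0), with 17 and 20, 23 and 28, and 26 and 22 genes at an unadjusted p under 0.05 by edgeR. Over all genes no replicate block and the compared groups alone also called 0. Sequencing batch 1 alone called 6 of 14703 genes lower and 9 higher under vehicle, and 3 and 4 under Li. Under Li, 2770 of 14783, 4561 of 14129 and 3818 of 14703 of all genes had an unadjusted p under 0.05 by edgeR in these fits. The cause was not tested. With the culture as a random effect 9 and 11 were called (all genes lower 318 and 375), of which 6 and 8 were called in the main design. Leaving out 1 library gave 0 to 19 calls under vehicle and 1 to 12 under Li. The Li comparisons kept 0 calls throughout the alternatives run. The compared groups alone were not run for the difference of the Li effect, which needs all 4 groups. Genes of few counts, such as Lcp1 and Capg, have wide errors.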
